A study of Mus musculus with 10 samples.

Results

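The comparison described here set mouse embryonic fibroblasts that express a G9a protein unable to be methylated at its histone-like site against the same kind of G9a-deleted cells given an empty vector. It used 4 of the 10 arrays of the series, chosen by their titles: the pair for FLAG-tagged G9a carrying the K165A substitution (K165A) and the pair for the empty vector (delta). All 4 groups of reconstituted cells lack endogenous G9a by deletion, so the deletion is shared by K165A, delta, the pair given wild-type FLAG-G9a (WT) and the pair given the catalytic mutant FLAG-G9a H1093K (H1093K). The last pair of arrays is titled only as deleted, with no vector named. Each group held 2 arrays, and both values are given wherever a gene is described. The labels do not say whether the cells of a group were 1 clone or a pool, nor which promoter drove the introduced G9a. The comparison asks which genes differ from the empty vector when G9a without its self-methylated lysine is put back, and WT and H1093K serve as references.

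G9a, encoded by Ehmt2, is a lysine methyltransferase that places methyl groups on lysine 9 of histone H3 and is known mostly for silencing genes in euchromatin. It also methylates itself at a stretch that resembles the histone H3 tail, and that methylated lysine can be bound by chromodomain proteins such as those of the HP1 family. The K165A change removes the self-methylated lysine and leaves the catalytic domain in place, whereas H1093K lies in the catalytic domain. Array signal reports steady-state RNA, so genes bound by G9a and genes further downstream cannot be told apart.

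Signal intensities were compared as log2(signal + 16), and a probe set counted as changed at a limma adjusted p under 0.05. Median signal per array lay between 181 and 199.6, and the arrays of a group correlated at 0.984 to 0.989 across probe sets. The main Ehmt2 probe set read 473 and 415 in delta, 704 and 725 in K165A, 676 and 620 in WT, and 461 and 494 in the arrays labelled H1093K. It was 1.59-fold higher in K165A than in delta (adjusted p = 0.00128), and the arrays of the 2 groups did not overlap. The H1093K values overlap those of delta, and the arrays labelled deleted read 1678 and 1750, so on this probe set the signal does not follow those labels. A dimmer Ehmt2 probe set, under the filter and not tested, read 7.13 and 36.5 in delta, 90.4 and 178 in K165A, 40.9 and 106 in WT, 116 and 55.7 in H1093K and 162 and 247 in the arrays labelled deleted. There the H1093K arrays lay above delta, unlike on the main probe set. The sources used here do not say which stretch of the Ehmt2 transcript the probes cover or whether the introduced sequence holds it, so the signal is no check of G9a protein. The fibroblast collagens Col1a1 and Col1a2, fibronectin Fn1 and vimentin Vim were bright on all 10 arrays. The fibroblast genes Dcn and Lum lay near background on the 8 arrays of reconstituted cells, with Dcn between 5.28 and 54.0 there against 1357 and 1519 in the arrays labelled deleted. Pdgfra, another fibroblast gene that was not tested, read 5.78 and 5.48 in delta and 81.7 and 78.8 in K165A. Its signal in the arrays labelled deleted was 1628 and 1743. Of the 8 fibroblast markers tested, 2 rose and 2 fell in K165A against delta. Pdgfrb went from 645 and 680 to 1416 and 1245, and Thy1 from 1711 and 2028 to 977 and 1002. The leukocyte marker Ptprc read 12.0 to 37.3 and the endothelial marker Pecam1 7.04 to 29.2 on the 8 arrays, near background. Cd14 (149 to 199), Csf1r (111 to 184), Cd68, Laptm5, Eng (71.3 to 159) and Kdr passed the filter.

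Promoter sequence is shown for 2 gene groups whose members changed and whose upstream sequences hold a known regulatory element. The first is the core of the interferon-stimulated response element, GAAA and GAAA spaced by any 2 bases, to which interferon-regulatory transcription factors bind. It was searched on both strands of RefSeq promoter windows of mouse build GRCm38.p6, from 250 bases before to 50 after a gene's start, and 3.44% of 32851 windows held it. Among interferon-stimulated genes measured here and matched to a window, 19 of 36 held the core. It was present in 6 of the 8 matched members that fell in K165A (Ddx60, Ifih1, Oas1a, Oas3, Rsad2 and Trim30a) and in 3 of the 4 that rose (Ifit1, Ifit3 and Irgm1), so members of either direction carried it. The sequences below are on the gene's strand, 5′ to 3′, with each match in capitals. They stand for Oas3 (chr5:120777695-120777764, minus strand), Rsad2 (chr12:26456533-26456602, minus) and Ddx60 (chr8:61928004-61928107, plus), which fell, and for Ifit1 (chr19:34640755-34640843, plus) and Ifit3 (chr19:34583343-34583446, plus), which rose.
Oas3: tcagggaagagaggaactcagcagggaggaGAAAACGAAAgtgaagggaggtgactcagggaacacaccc
Rsad2: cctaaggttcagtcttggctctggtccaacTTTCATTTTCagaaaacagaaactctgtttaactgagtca
Ddx60: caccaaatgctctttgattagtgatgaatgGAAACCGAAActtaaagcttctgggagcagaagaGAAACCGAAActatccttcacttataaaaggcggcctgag
Ifit1: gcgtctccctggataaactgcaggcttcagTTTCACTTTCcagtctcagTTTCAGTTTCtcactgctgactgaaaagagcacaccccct
Ifit3: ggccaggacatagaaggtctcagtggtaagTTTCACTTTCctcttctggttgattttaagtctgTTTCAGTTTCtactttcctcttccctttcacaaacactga

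The second element is the C/EBP-ATF response element TGATGNAA, which the amino acid stress factor ATF4 binds and which 3.97% of windows held on either strand. It was found in 11 of 30 matched genes of amino acid synthesis, transport and tRNA charging, and in 5 of the 8 of these that fell (Aars, Asns, Gars, Got1 and Tars). A call for Tars was lost when the first or second delta array or the first K165A array was left out (largest adjusted p = 0.099). Asns (chr6:7693195-7693262, minus), Gars (chr6:55037941-55038008, plus), Got1 (chr19:43524670-43524737, minus) and Tars (chr15:11399636-11399703, minus) are shown because they fell. A match describes these letters in this window and is not evidence that a factor was bound. The sterol element TCACNCCAC was found in 1 of 18 matched cholesterol synthesis genes (Hmgcs1) against 1.24% of all windows, and the AP-1 element TGACTCA in 0 of 27 matched immediate early genes against 5.20%.
Asns: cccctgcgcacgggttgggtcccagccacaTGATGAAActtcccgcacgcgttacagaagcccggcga
Gars: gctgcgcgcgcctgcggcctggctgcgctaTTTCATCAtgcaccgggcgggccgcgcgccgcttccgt
Got1: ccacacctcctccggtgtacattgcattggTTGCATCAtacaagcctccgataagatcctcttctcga
Tars: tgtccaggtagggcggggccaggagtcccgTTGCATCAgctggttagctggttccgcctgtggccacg

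Cells given K165A G9a had more signal than empty vector cells for Sfrp2, Angpt1, Bmp4, Osr2, Eomes and other secreted, mesodermal and matrix genes, and less for Ppbp, Oas2, Actg2, Krt7 and many cholesterol synthesis genes. Of 13576 probe sets tested, 1529 (11.3%) passed the threshold, 677 higher and 852 lower in K165A. With the replicate number as a block the count was 2678, and with 1 of the 4 arrays left out it was 928 (without the first delta array), 823 (without the second), 898 (without the first K165A array) or 873 (without the second). Taken as 1 probe set per gene, 399 of 7742 genes were higher (5.15%) and 580 lower (7.49%). Of the genes that rose, 82 changed over 2-fold, 122 between 1.5 and 2-fold and 195 by less. Of the genes that fell, 74 changed over 2-fold, 172 between 1.5 and 2-fold and 334 by less. The genes that rose had a median signal of 531 in delta and 851 in K165A, beside 835 in WT and 597 in the arrays labelled H1093K. Those that fell had a median signal of 904 in delta and 593 in K165A, beside 599 in WT and 817 in H1093K. Both sets were chosen by K165A minus delta in these same arrays, which by itself sets the delta and K165A medians apart. These medians are therefore a description and no test of likeness to WT or H1093K. The median difference over all genes was -0.01 on the log2 scale. Of 409 changed genes with several probe sets above the filter, all probe sets had the same sign in 384 and all passed in 143. In bulk RNA, a change in the number of cells that express a gene and a change in RNA per cell cannot be told apart. The labels do not state that the 2 arrays of a group came from different cultures, and p-values therefore reflect array-to-array spread that could be only technical.

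**Figure D1:**
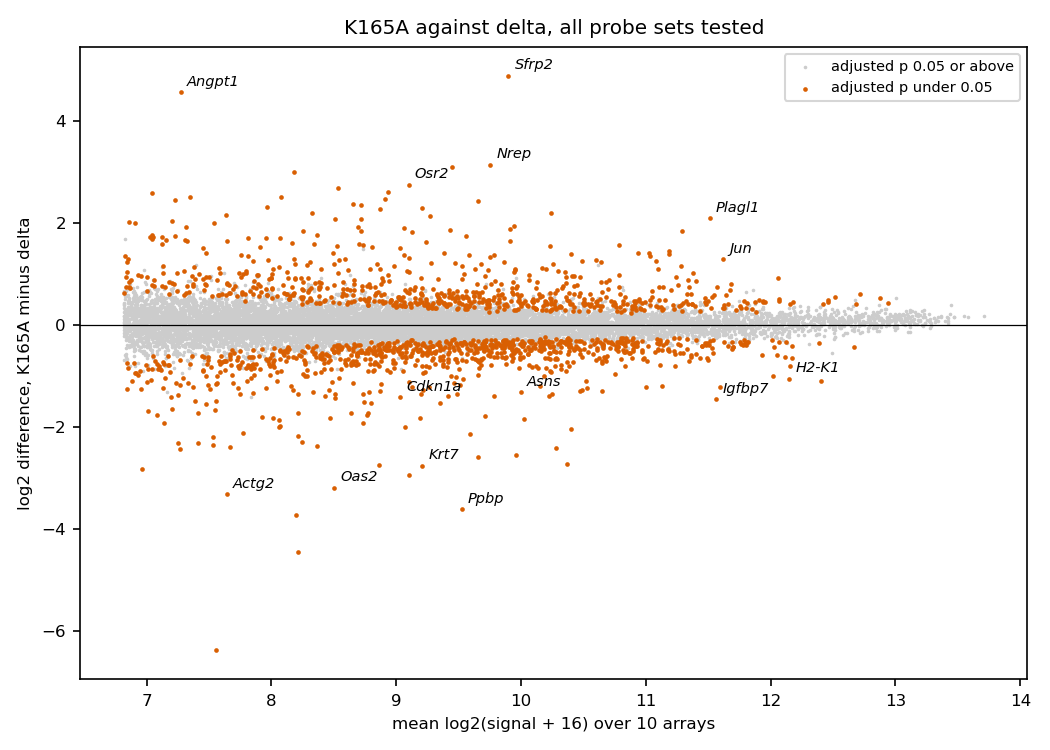
Each point is 1 of 13576 probe sets, with its mean log2(signal + 16) over the 10 arrays on the horizontal axis and the log2 difference K165A minus delta on the vertical axis. The 1529 coloured points passed an adjusted p of 0.05, 677 of them above and 852 below the zero line, and named points are genes described in the text.

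Secreted regulators led the rise. Sfrp2, a secreted antagonist of Wnt ligands, read 484 and 112 in delta and 7859 and 7053 in K165A, 29.5-fold higher (adjusted p = 0.000112). The delta arrays differed from each other, and the fold was 58.3 without the first delta array and 14.9 without the second. WT read 8822 and 7499 and the arrays labelled H1093K 104 and 91.8, so Sfrp2 was bright in WT and K165A and dim in the other pairs. Angpt1, the angiopoietin that activates the endothelial receptor Tie2, read 18.9 and 2.60 in delta and 595 and 571 in K165A (log2 difference 4.56, 95% interval 3.99 to 5.12). No fold is given for Angpt1 because its delta mean lay under the added 16. Bmp4, a bone morphogenetic protein that patterns mesoderm, read 82.2 and 107 in delta and 577 and 507 in K165A, 5.07-fold higher (adjusted p = 4.99e-06). Igfbp2, a binding protein that carries insulin-like growth factors, went from 41.9 and 27.8 to 296 and 248, 5.70-fold higher.

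Developmental regulators and matrix genes made up most of the rest of the 15 largest rises. Osr2, a zinc finger factor of limb and palate mesenchyme, read 195 and 240 in delta and 1488 and 1606 in K165A, 6.71-fold higher (log2 interval 2.46 to 3.03). Eomes, a T-box factor of early mesoderm, read 306 and 339 in delta and 2029 and 1714 in K165A, 5.56-fold higher. Mef2c, a MADS-box factor of muscle and heart, read 46.9 and 42.8 in delta and 291 and 371 in K165A. Plagl1, an imprinted zinc finger gene, read 1401 and 1114 in delta and 5390 and 5394 in K165A, 4.27-fold higher (adjusted p = 3.69e-06). Fbn2, a fibrillin of elastic microfibrils, rose 7.96-fold and Col6a3, a chain of collagen VI, rose 4.80-fold. Nrep, a small neuronal and wound-repair protein, rose 8.82-fold, from 266 and 181 to 2184 and 1942. Shisa2, which holds back Wnt and FGF receptors inside the cell, rose 6.08-fold, Ccn3, a matricellular protein, 4.55-fold, Zfp503 4.54-fold and Islr 4.44-fold. None of the 15 lost its call when any 1 of the 4 arrays was left out.

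The largest falls among genes with a name took in interferon-induced genes, genes of epithelial junctions and metabolic enzymes. Ppbp, the chemokine CXCL7 that attracts neutrophils, read 3120 and 3499 in delta and 252 and 257 in K165A, 12.3-fold lower (adjusted p = 7.41e-08), beside 326 and 282 in WT and 2656 and 2474 in H1093K. Oas2, an interferon-induced sensor of double-stranded RNA, read 1350 and 1354 in delta and 151 and 118 in K165A, 9.13-fold lower. Actg2, the enteric smooth muscle actin, read 514 and 591 in delta and 51.7 and 32.3 in K165A, 9.92-fold lower. In all 3 cases the arrays labelled H1093K lay nearer to delta and the WT arrays nearer to K165A. Krt7, a keratin of simple epithelia, read 2660 and 2557 in delta and 386 and 358 in K165A, 6.76-fold lower. Pkp2, a desmosome plaque protein, read 661 and 604 in delta and 112 and 119 in K165A, 4.92-fold lower. Aldh1a1, which makes retinoic acid, read 2049 and 1624 in delta and 433 and 191 in K165A, 6.05-fold lower. The 2 K165A arrays differed for Aldh1a1 but both lay well below delta.

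Moxd1, a copper monooxygenase relative, fell 7.65-fold, from 1609 and 1497 to 194 and 184. Nnmt, which methylates nicotinamide, fell 7.07-fold, and Gpx3, a secreted glutathione peroxidase, fell 4.94-fold, from 313 and 333 to 80.1 and 32.8. Ankrd1, a target of the Hippo pathway factor YAP, read 3044 and 3285 in delta and 684 and 832 in K165A, 4.13-fold lower, and Selp, an adhesion receptor for leukocytes, fell 3.99-fold. Asb5 fell 4.58-fold and Mpzl2, an adhesion protein of epithelia, 4.51-fold. Oas3 fell 5.11-fold, but the fold was 8.18 without the second K165A array and 3.19 without the first, whose signals were 147 and 47.6. Slfn2 fell 3.81-fold, with 5.86 without the second K165A array and 2.48 without the first. Its K165A signals were 30.5 and 93.9, against 265 and 248 in delta. In addition, 3 probe sets with no single gene name fell further than Ppbp, with log2 differences of -3.73, -4.45 and -6.38, and were picked out after their values were seen.

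**Figure D2:**
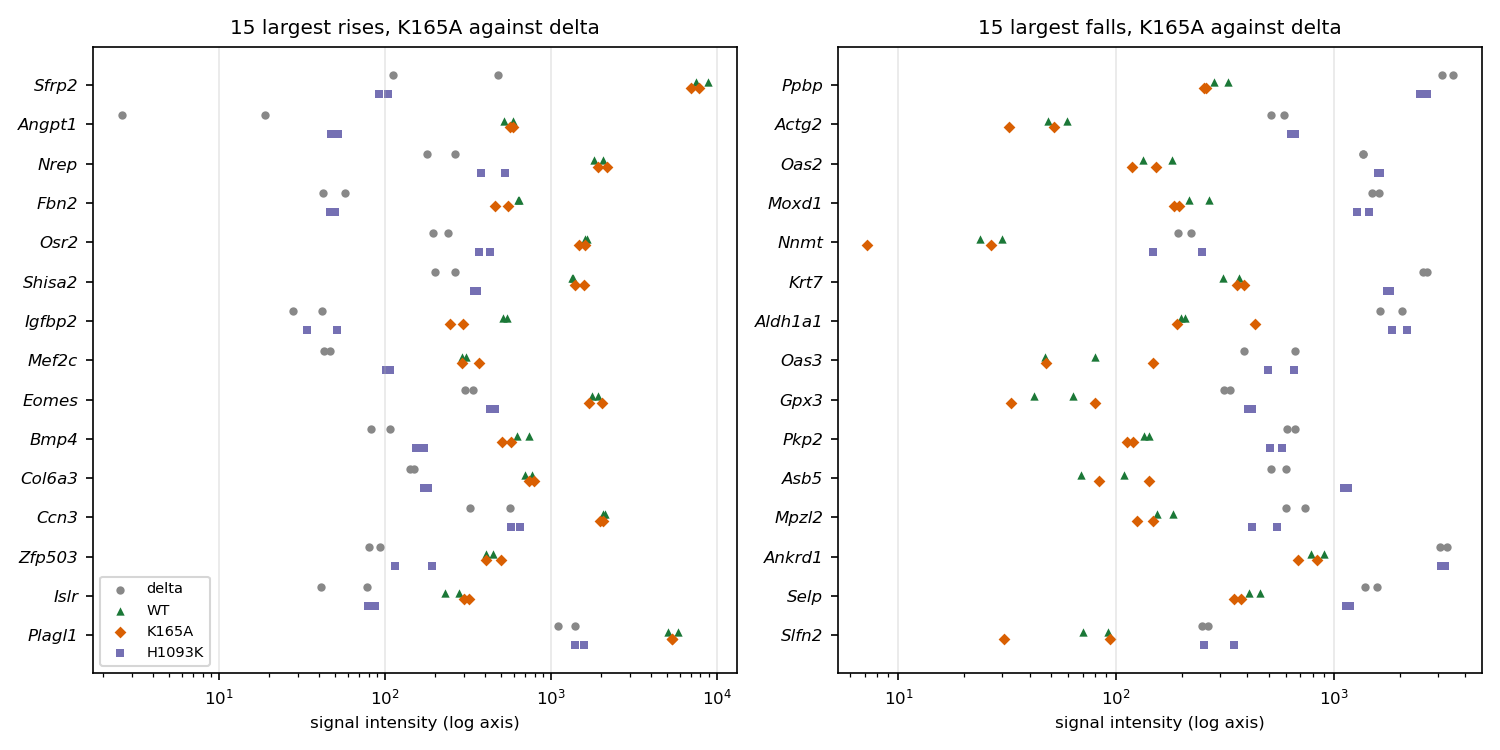
Signal intensity on a log axis in each array of delta, WT, K165A and H1093K, 2 points per group and gene, for the 15 largest rises (left) and 15 largest falls (right) among named genes of K165A against delta. For Sfrp2 (K165A 7859 and 7053) and Ppbp (K165A 252 and 257) the K165A points lie near WT and the H1093K points nearer to delta, whereas for Igfbp2 the K165A points (296 and 248) lie between delta and WT.

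Among secreted signalling genes, rises and falls depended on the family. Over all genes, 5.15% rose and 7.49% fell. Of 7 Wnt ligands and secreted antagonists tested, 3 rose (42.9%) and none fell (1 fell with the replicate block). Beside Sfrp2 they were Rspo2, an R-spondin that amplifies Wnt signals, at 1522 and 1460 in delta and 2757 and 2769 in K165A (1.84-fold), and Wnt16, at 121 and 146 in delta and 251 and 342 in K165A. Wnt16 lost its call without either delta array or without the second K165A array (largest adjusted p = 0.168). Wnt7b read 251 and 231 in delta and 211 and 139 in K165A and did not pass (adjusted p = 0.211, and 0.0452 with the replicate block). Of 31 BMP and TGF-beta genes, 7 rose (11 with the replicate block, 3 to 5 with 1 array left out) and 4 fell (1 to 3 with 1 left out). The BMP and TGF-beta shares were 22.6% higher and 12.9% lower. Tgfbi, a matrix protein induced by TGF-beta, rose 2.74-fold, from 1206 and 1271 to 3564 and 3275, and Tgfb2, the ligand itself, 1.71-fold. Ltbp2, a latent TGF-beta binding relative, fell 2.12-fold, and the receptor genes Tgfbr2 and Tgfbr3 did not pass (adjusted p = 0.0918 and 0.0722). With the replicate block Tgfbr3, at 248 and 253 in delta and 361 and 318 in K165A, had an adjusted p of 0.0362.

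Insulin-like growth factor genes passed in both directions, 33.3% higher and 16.7% lower, beside 5.15% and 7.49% of all genes. Of 12 tested, 4 rose and 2 fell (1 to 2 with 1 array left out). The ligand Igf1 went from 28.7 and 48.1 in delta to 158 and 132 in K165A, 2.99-fold higher (adjusted p = 0.000885). Igfbp4 rose 2.32-fold and the receptor adaptor Irs1 1.70-fold. A dimmer kept Igfbp4 probe set had the same sign but did not pass (limma adjusted p = 0.0704). Igfbp7 was the main fall, from 5668 and 6750 to 2142 and 2365, 2.74-fold lower. Of 9 angiopoietin and VEGF ligand genes, Angpt1 alone rose (2 rose with the replicate block) and 4 fell (2 to 3 with 1 array left out). In that list 11.1% rose and 44.4% fell. Vegfa, the main endothelial growth factor, read 238 and 224 in delta and 94.8 and 104 in K165A, 2.14-fold lower, and Pdgfc fell 1.60-fold. A dimmer kept Vegfa probe set had the same sign but did not pass (limma adjusted p = 0.433). Pdgfb fell 1.92-fold, a call lost without the first delta array (adjusted p = 0.0724) or the second K165A array (0.0675). Vegfd passed on its brightest probe set but not on the other 2 kept, 1 of which had the opposite sign.

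Extracellular matrix genes moved in both directions. Of 31 elastic fibre, proteoglycan and matricellular genes, 10 rose (32.3%) and 7 fell (22.6%), and of 20 collagens, 6 rose and 3 fell (0 to 1 fell with 1 array left out). Omd, the bone proteoglycan osteomodulin, read 438 and 361 in delta and 1612 and 1368 in K165A, 3.63-fold higher (adjusted p = 1.47e-05). Smoc2, a matricellular BMP modulator, read 1378 and 1480 in delta and 3600 and 4001 in K165A, 2.64-fold higher. Vcan, the large proteoglycan versican, rose 2.57-fold and Aspn, asporin, 2.22-fold. A dimmer kept Vcan probe set had the same sign but did not pass (limma adjusted p = 0.0589). Col6a1 and Col6a2, which build collagen VI with Col6a3, rose 1.42-fold and 1.62-fold, so all 3 chains went up. Col3a1 rose 1.90-fold and Col12a1 fell 1.62-fold, a call lost without the second delta array (adjusted p = 0.0567) or the first K165A array (0.0675). Of 22 matrix proteases and inhibitors, 4 rose and 4 fell (1 to 2 with 1 array left out). Timp3, which inhibits metalloproteases at the matrix, rose 3.81-fold, from 253 and 283 to 1033 and 1101, whereas Timp1, its secreted relative, fell 1.75-fold, from 3371 and 3401 to 2154 and 1722. Adamts1, a protease of proteoglycans, read 1417 and 1520 in delta and 3470 and 3593 in K165A, 2.39-fold higher.

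Among 27 transcription factors of mesoderm and limb, 9 rose (33.3%, beside 5.15% of all genes), none fell and 18 did not pass. With the replicate block 14 rose and 1 fell. The 27 had a median log2 difference of 0.30 beside -0.01 over all genes. Tbx18, a T-box factor of mesenchyme, read 175 and 157 in delta and 327 and 387 in K165A, 2.05-fold higher. Mef2a, a relative of Mef2c, rose 1.49-fold and Prrx1, a marker of limb mesenchyme, 1.30-fold, from 1128 and 1166 to 1517 and 1481. A dimmer kept Prrx1 probe set had the same sign but did not pass (limma adjusted p = 0.213). Twist1 read 415 and 434 in delta and 502 and 685 in K165A and did not pass (adjusted p = 0.0516, and 0.0117 with the replicate block), nor did Snai1, at 214 and 202 against 150 and 144 (0.0576, and 0.034 with the block). Of 15 Hox genes and cofactors, 3 rose (5 with the replicate block) and 1 fell, but with 1 array left out 0 to 1 rose and 0 fell. Of 36 immediate early and AP-1 genes, 10 rose and 5 fell (3 to 4 fell with 1 array left out). Jun, the AP-1 subunit, went from 1623 and 1623 to 3943 and 4052, 2.45-fold higher (adjusted p = 2.68e-06), and Fosb from 1149 and 1357 to 3065 and 3589, 2.63-fold higher. Zfp36 and Zfp36l1, RNA-binding proteins that speed decay of cytokine messages, rose 1.68-fold and 1.84-fold. Another kept Zfp36l1 probe set had the same sign but did not pass (limma adjusted p = 0.0504). Ier3 fell 1.57-fold and Noct, a NADPH phosphatase of the clock, 1.82-fold. Fos did not pass, at 7035 and 7140 in delta and 11784 and 8769 in K165A (adjusted p = 0.0848, and 0.0422 with the replicate block).

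Of 18 MAP kinase feedback and EGF-type ligand genes, 4 rose (1 to 2 with 1 array left out) and 2 fell (1 with 1 left out). These shares were 22.2% higher and 11.1% lower, beside 5.15% and 7.49% of all genes. Spry2, a Sprouty inhibitor of receptor tyrosine kinase signalling, read 675 and 693 in delta and 1145 and 969 in K165A (1.53-fold higher). Its call was lost without the first K165A array (adjusted p = 0.0711). Of 19 Notch and Hedgehog genes, 2 rose (5 with the replicate block, 1 to 2 with 1 array left out) and 2 fell (1 with 1 left out). The Notch and Hedgehog share was 10.5% in either direction, and the share that fell was near that of all genes. Gas1, a co-receptor of Hedgehog, rose 2.01-fold, from 1495 and 1552 to 3260 and 2908. Hey1, a transcriptional repressor downstream of Notch, fell 2.27-fold, from 293 and 259 to 117 and 108 (adjusted p = 0.00449).

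Many chemokine and antigen presentation genes fell. Of 19 chemokines and inflammatory cytokines, 10 fell (52.6%, beside 7.49% of all genes, and 6 to 8 with 1 array left out) and 2 rose (1 to 2 with 1 left out). Beside Ppbp, the neutrophil chemokine Cxcl5 read 630 and 483 in delta and 239 and 193 in K165A, 2.46-fold lower, and Cxcl15 went from 1815 and 1828 to 1019 and 1041. Cx3cl1 fell 1.67-fold and the macrophage growth factor Csf1 1.45-fold. Cxcl12, the homing signal for stem cells, moved the other way, from 1348 and 1296 to 2650 and 2476, 1.93-fold higher (adjusted p = 2.47e-05). Of 16 MHC class I and antigen processing genes, 7 fell (43.8%) and none rose, with a median log2 difference of -0.39. H2-K1 read 6514 and 7482 in delta and 3455 and 3256 in K165A, 2.08-fold lower, though class I genes are near copies and their probes may share signal. The peptide transporter Tap1 fell 2.22-fold and the immunoproteasome subunits Psmb8 and Psmb9 2.71-fold and 1.97-fold. Calr, a chaperone in the same list, read 5726 and 6732 in delta and 5262 and 5360 in K165A and did not pass.

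Of 47 interferon-stimulated genes, 10 fell (21.3%) and 4 rose (2 to 3 with 1 array left out), and their median difference, -0.08, was near that of all genes. Over all genes 7.49% fell and 5.15% rose, and 8.51% of this list rose. Trim30a read 1522 and 1436 in delta and 576 and 531 in K165A, 2.63-fold lower, and Ddx60, a helicase that senses viral RNA, fell 2.01-fold. The GTPase Ifi47 fell 2.19-fold and the antiviral protein Rsad2, viperin, 1.69-fold. Ifit3, which binds foreign RNA, rose 1.68-fold, from 2118 and 2115 to 3713 and 3438 (adjusted p = 0.000152). Thus Oas2 and Trim30a fell while Ifit3 rose. Promoters of members of either direction, Trim30a and Ifit3 among them, held the interferon core. Only 8 of the 10 members that fell were matched to a window. That Oas2 was not among the genes found therefore does not show that its promoter lacks the core. None of the 4 leukocyte and 2 endothelial markers tested passed, and the summed signal of the leukocyte list was 925 to 940 in delta and 672 to 906 in K165A. Their part in these falls was not tested.

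Of 11 keratin and desmosome genes, 6 fell (54.5%, beside 7.49% of all genes) and none rose, with a median log2 difference of -0.93, and all 6 kept their call with each of the 4 arrays left out. Krt18 read 583 and 553 in delta and 182 and 141 in K165A, 3.31-fold lower (adjusted p = 1.34e-05). The desmosomal cadherin Dsg2 went from 160 and 111 to 40.9 and 22.2, 3.21-fold lower, Krt19 fell 1.90-fold and Perp 2.20-fold. Krt8, the partner of Krt18, read 145 and 112 in delta and 88.1 and 95.7 in K165A and did not pass. The defining epithelial genes were low or near background: Cdh1 read 77.4 to 175 on the 8 arrays, below the filter, and Epcam at most 35.9. The summed signal of the epithelial list was 1287 to 1481 in delta and 681 to 792 in K165A. That list shares Krt8, Krt18 and Krt19 with the keratin list, so its sum is no separate measure of epithelial cells. Cdh1 read 135 and 77.4 in delta and 130 and 126 in K165A. The part of epithelial cells in these falls was not tested. Of 21 smooth muscle and contractile genes 5 fell (2 to 3 with 1 array left out), none rose and 16 did not pass. Calponin Cnn1 read 1063 and 1046 in delta and 572 and 526 in K165A, 1.90-fold lower, and transgelin Tagln fell 1.51-fold, a call lost without the second delta array (adjusted p = 0.0582). Srf, the factor that drives such genes, read 620 and 621 in delta and 543 and 501 in K165A and did not pass (adjusted p = 0.114). The share of smooth muscle and contractile genes that fell was 23.8%. Of 6 neuronal-type genes, 3 fell (1 to 2 with 1 array left out) and none rose (1 with the replicate block). The microtubule regulator Stmn2 read 849 and 918 in delta and 223 and 252 in K165A, 3.56-fold lower (adjusted p = 9.69e-06).

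Of 23 cholesterol synthesis genes, 11 fell (47.8%, beside 7.49% of all genes) and none rose, with a median log2 difference of -0.36. With the replicate block 14 fell and 1 rose, and with 1 array left out 0 to 1 rose. Msmo1, a sterol methyl oxidase, read 1985 and 1933 in delta and 1183 and 1124 in K165A, 1.69-fold lower (adjusted p = 0.000121). Fdps, farnesyl diphosphate synthase, read 3403 and 3480 in delta and 2154 and 2092 in K165A, 1.62-fold lower, and Nsdhl fell 1.64-fold. Sqle, squalene epoxidase, read 1499 and 1490 in delta and 1009 and 1147 in K165A, 1.38-fold lower. Pmvk read 277 and 159 in delta and 331 and 399 in K165A and did not pass (adjusted p = 0.0689, and 0.0306 with the block). Of 20 fatty acid and adipocyte genes, 6 fell (3 to 4 with 1 array left out), among them the fatty acid binding proteins Fabp4, from 368 and 358 to 140 and 126 (2.55-fold lower), and Fabp5 (1.57-fold lower). Of 39 amino acid genes, 8 fell (14 with the replicate block) and none rose (1 with the block). Asparagine synthetase Asns went from 1085 and 1182 to 429 and 465, 2.48-fold lower (adjusted p = 6.65e-06), and the tRNA synthetases Gars and Aars fell 1.49-fold and 1.43-fold. Ddit4, a stress-induced inhibitor of mTOR, fell 1.73-fold. Slc1a5, a glutamine carrier, read 337 and 264 in delta and 218 and 200 in K165A and did not pass (adjusted p = 0.0700, and 0.0349 with the block). Of 29 endoplasmic reticulum chaperone and unfolded protein genes, 3 fell (10.3%, near the 7.49% of all genes). Among them were the chaperone Dnajb11, from 1098 and 1153 to 691 and 716, and Xbp1, at 2194 and 2268 in delta and 1472 and 1664 in K165A. Other kept Xbp1 probe sets had the same sign, with limma adjusted p of 0.00379, 0.257 and 0.465.

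Glycolysis and hypoxia genes were mixed, with 2 of 28 rising (1 to 2 with 1 array left out) and 4 falling (7 with the replicate block, 2 to 3 with 1 array left out). The share that rose, 7.14%, was near the 5.15% of all genes, and the share that fell was 14.3%, beside 7.49%. Ndrg1, a stress gene, rose 1.87-fold, from 528 and 550 to 1024 and 1023. Hexokinase Hk2 read 492 and 499 in delta and 323 and 244 in K165A, 1.72-fold lower, a call lost without the second K165A array (adjusted p = 0.0539). Of 11 retinoid genes, 3 fell and 1 rose (0 to 1 rose with 1 array left out). The retinoid shares were 27.3% lower and 9.09% higher. The retinol dehydrogenase Rdh10 read 3792 and 4034 in delta and 2325 and 2466 in K165A, 1.63-fold lower (adjusted p = 0.000218). Rdh10 and Aldh1a1 encode consecutive steps from retinol to retinoic acid, and both fell.

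Of 37 p53 targets and inhibitors, 10 fell (27.0%) and 4 rose (1 to 4 with 1 array left out). Cdkn1a, the p21 inhibitor of cyclin-dependent kinases, read 786 and 870 in delta and 336 and 269 in K165A, 2.66-fold lower, and the apoptosis gene Pmaip1 went from 1172 and 1016 to 438 and 439, 2.44-fold lower. Plk2 fell 1.64-fold and Gadd45b 1.41-fold, though a dimmer kept Gadd45b probe set did not pass (limma adjusted p = 0.989). The list shares, 27.0% lower and 10.8% higher, stand beside 7.49% and 5.15% of all genes. Ddit4l, the relative of Ddit4, rose 3.98-fold, from 76.1 and 61.7 to 355 and 289 (adjusted p = 4.47e-05). Of 46 DNA replication genes, 3 rose (8 with the replicate block, 0 to 1 with 1 array left out) and of 48 mitosis genes, 4 rose (7 with the block, 1 with 1 array left out). Both shares, 6.52% and 8.33%, were near the background of 5.15%. The spindle motor Kif11, at 622 and 580 in delta and 867 and 868 in K165A, rose 1.43-fold. Its other kept probe sets had the same sign but did not pass (limma adjusted p = 0.0589 and 0.227). Mki67 read 2375 and 2579 in delta and 3198 and 2900 in K165A and did not pass (adjusted p = 0.0572, and 0.028 with the block).

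Of 18 genes of H3K9 methylation and HP1, 3 rose (16.7%, beside 5.15% of all genes, and 5 with the replicate block), including Ehmt2 itself. Cdyl, a chromodomain protein of G9a complexes, read 392 and 368 in delta and 614 and 598 in K165A, 1.57-fold higher (adjusted p = 0.00399). Another kept Cdyl probe set had the same sign but did not pass (limma adjusted p = 0.152). The HP1 gene Cbx1 read 1067 and 977 in delta and 1191 and 1217 in K165A and did not pass (adjusted p = 0.0993, and 0.0354 with the block). Of 25 DNA methylation and Polycomb genes, 2 rose (8.0%, near the 5.15% of all genes), and 4 with the replicate block. Neither of the 2 calls held with each of the arrays left out. Of 16 imprinted genes, 4 rose and 2 fell (1 fell with 1 array left out). Peg3, a zinc finger gene expressed from the paternal allele, read 194 and 139 in delta and 612 and 704 in K165A, 3.72-fold higher (adjusted p = 5.55e-05). Ndn, also paternally expressed, moved the other way, from 660 and 594 to 204 and 213, 2.86-fold lower (adjusted p = 0.000168). Grb10 rose 1.38-fold, from 3093 and 3197 to 4306 and 4369, though a dimmer kept probe set did not pass (limma adjusted p = 0.383). Of 5 germline and pluripotency genes above the filter, 1 rose and 1 fell (0 to 1 fell with 1 array left out), and 26 of the 31 on the array were too dim to test. Klf4 rose 2.11-fold, from 382 and 409 to 809 and 893.

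Set directly against wild-type G9a, the K165A mutant gave no probe set past the threshold. In limma, 0 of 13576 (0%) passed, 429 had an unadjusted p under 0.05, and 5% of 13576 is 678.8. The smallest adjusted p was 0.436. A p that misses the threshold does not show that the cells were alike, so intervals are given as well. The 95% interval of K165A minus WT lay within 2-fold in both directions for 98.0% of probe sets and within 1.5-fold for 82.8%, and 6 probe sets differed by over 2-fold. For K165A minus delta, with 1529 calls, these shares were 92.8% and 66.8%, and 279 probe sets differed by over 2-fold. High shares therefore do not by themselves show likeness to WT. For Sfrp2 the interval was wide, -1.15 to 0.90 on the log2 scale. For Osr2 it was -0.35 to 0.21, for Plagl1 -0.28 to 0.24, for Krt7 -0.15 to 0.43 and for Col6a3 -0.16 to 0.27. Among the larger falls, Oas2 had an interval of -0.54 to 0.16. The interval, not adjusted for the number of genes, excluded 0 for 5 of the 30 leading genes, all lower in K165A than in WT. Beside Igfbp2 (-1.34 to -0.52) these were Bmp4 (-0.63 to -0.01), Ppbp (-0.45 to -0.03), Moxd1 (-0.58 to -0.07) and Selp (-0.49 to -0.02). For Igfbp2 and Bmp4 the K165A mean lay between delta and WT. For Ppbp, Moxd1 and Selp it lay further from delta than WT did. The 30 were chosen by K165A minus delta, which uses the same K165A arrays, so this is a description only. WT against delta, which shares the delta arrays with K165A against delta, called 1616 probe sets (11.9%, and 2813 with the replicate block). Since no probe set passed between K165A and WT, no member of the 31 lists could, and the lists add nothing to that count.

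**Figure D3:**
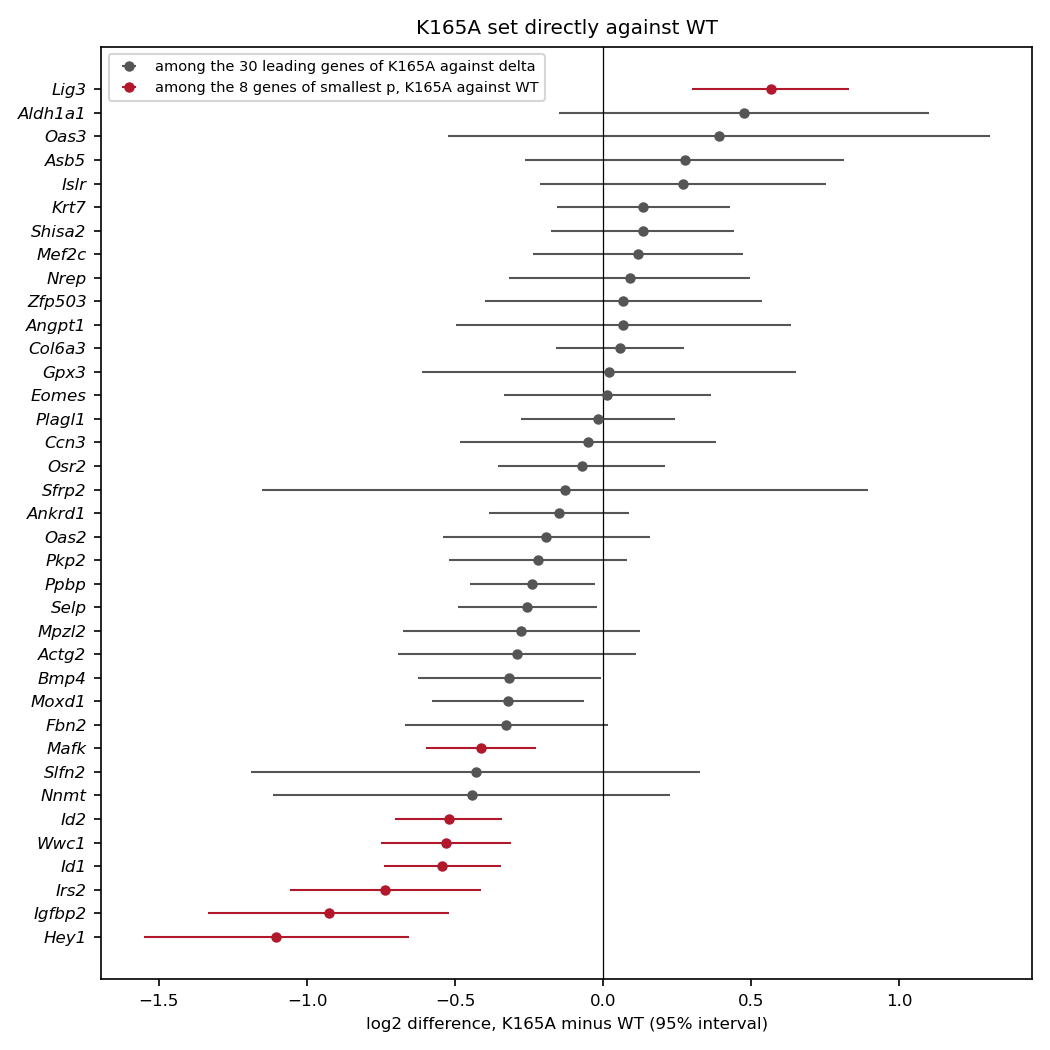
Log2 difference K165A minus WT with its 95% interval for the 30 leading genes of K165A against delta and the 8 genes of smallest p between K165A and WT, of which Igfbp2 is in both groups. Most leading genes cross the zero line, while Hey1 (-1.10) and Igfbp2 (-0.93) lie furthest to the left.

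The 8 genes of smallest p between K165A and WT are given as values, since none passed. Igfbp2 read 546 and 514 in WT and 296 and 248 in K165A, a log2 difference of -0.93 (interval -1.34 to -0.52, adjusted p = 0.641). So K165A lay between delta, at 41.9 and 27.8, and WT. Hey1 read 273 and 247 in WT, 293 and 259 in delta, 117 and 108 in K165A and 129 and 134 in H1093K. Here WT sat with delta, and both mutants were lower, with a K165A minus WT difference of -1.10 (interval -1.55 to -0.66, adjusted p = 0.556). Id1, a BMP target that blocks differentiation factors, read 3373 and 3215 in WT, 2350 and 2165 in K165A, 2917 and 2960 in delta and 1784 and 1543 in H1093K, a K165A minus WT difference of -0.54 (interval -0.74 to -0.35). Id2, its relative, read 1359 and 1450 in WT and 977 and 970 in K165A, a difference of -0.52 (interval -0.70 to -0.34). The K165A and WT arrays did not overlap for any of the 8 genes, which a choice by smallest p makes likely. Irs2, an insulin receptor adaptor, read 847 and 877 in WT and 444 and 589 in K165A, and Mafk, a small MAF factor, 1202 and 1114 against 836 and 897. Wwc1, a Hippo pathway scaffold known as KIBRA, read 586 and 525 in WT and 397 and 362 in K165A, with 869 and 941 in delta. Lig3, a DNA ligase, was the only one of the 8 that was higher in K165A, at 247 and 243 against 153 and 168 in WT.

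**Figure D4:**
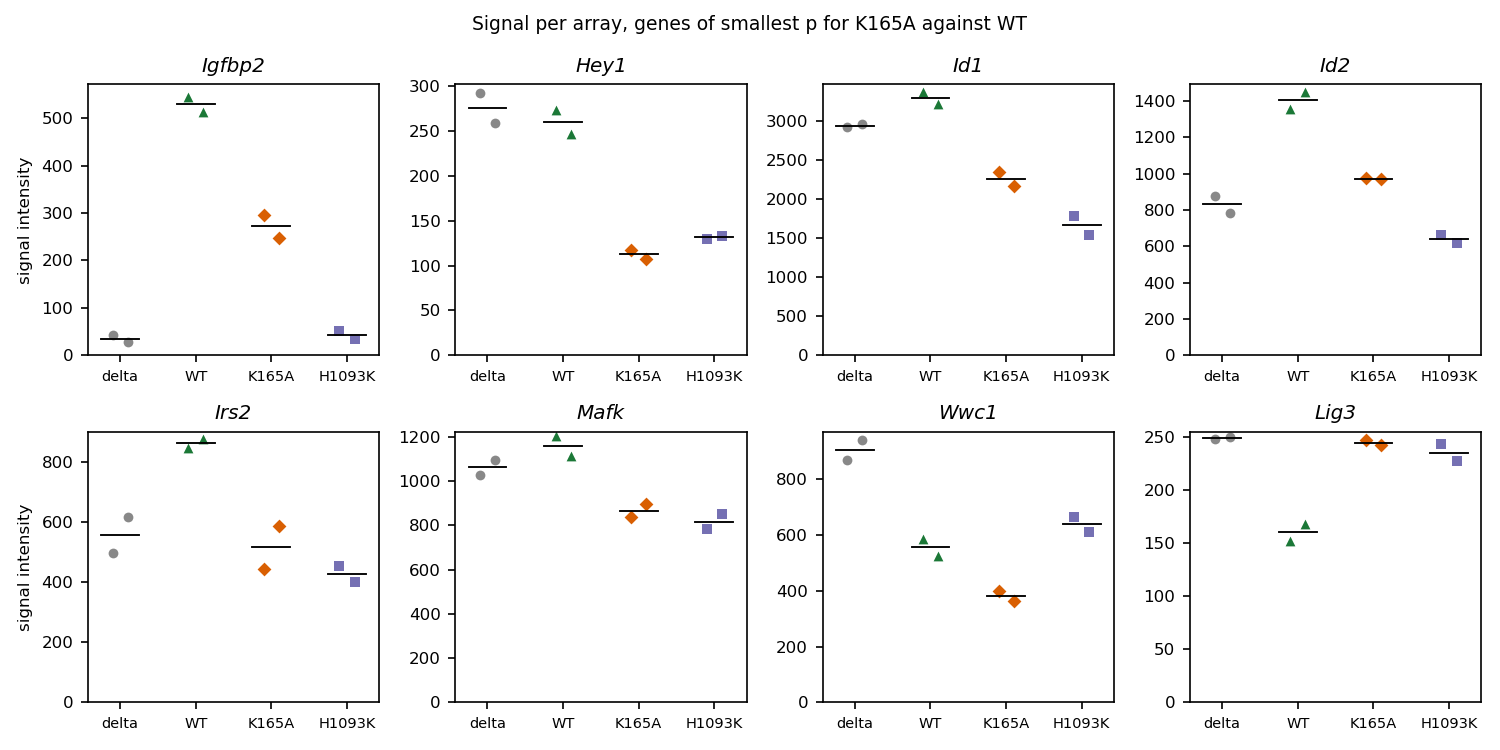
Signal intensity in each array of delta, WT, K165A and H1093K for the 8 genes of smallest p between K165A and WT, with a line at the group mean of 2 arrays and axes that start at 0. In Hey1 the WT and delta points lie together (247 to 293) above K165A and H1093K (108 to 134), whereas in Igfbp2 the K165A points (248 and 296) lie between delta and WT.

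Against the catalytic mutant the K165A arrays differed widely. In limma 1007 probe sets (7.42%) passed, 479 higher and 528 lower in K165A, with 1854 under the replicate block, 542 without the first array labelled H1093K, 569 without the second and 571 without the first K165A array. Of 30 leading genes, Ppbp read 252 and 257 in K165A and 2656 and 2474 in H1093K (adjusted p = 2.5e-07), and Oas2 151 and 118 against 1624 and 1592. Col6a3 and Fbn2 read 172 and 183, and 49.7 and 46.6, in H1093K, far below K165A. Over all 7742 genes, 282 were higher and 341 lower in K165A than in H1093K. Of the 27 mesoderm and limb factors, 9 were higher and 1 lower. Of the 23 cholesterol synthesis genes 12 were lower and none higher, and of the 47 interferon-stimulated genes 16 were lower and none higher. The arrays labelled H1093K also differed from delta, with which K165A against delta shares its control, in 111 probe sets (0.818%, and 472 with the replicate block). With 1 array left out that count was 7 to 36. Of the 229 genes chosen by the rule, 20 passed there, beside 75 of all 7742 genes tested. The rule drew mainly on K165A against delta, which shares the delta arrays, so these positions are a description and no test. The H1093K mean stood between those of delta and K165A for 14, such as Jun, at 2672 and 2647 in H1093K, and Smoc2, at 2652 and 2541. It stood outside them for 6, namely Id1, Pdgfc, Col8a1, Thbs2, Ccnb2 and Gli2. Pdgfc read 1112 and 1035 in H1093K, above delta (656 and 535), and 370 and 358 in K165A (adjusted p for H1093K against delta = 0.0148). For Aspn, H1093K read 755 and 796 beside 817 and 788 in K165A, and the direct difference was 0.05 on the log2 scale (adjusted p = 0.83).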

How the data were processed

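Messenger RNA was measured with Affymetrix arrays, 10 in 5 groups of 2. Linear signal intensities were deposited, which the authors computed in GCOS 1.4 according to the submitters' processing notes, with options not given in the sources used here. The trimmed mean (2% off each end) was about 500.1 on every array, so the deposited scaling was kept. Of 22690 probe sets, 64 controls were left out. Of the other 22626, the platform annotation gave 1 gene to 20380, several to 691 and none to 1555, and only the first kind are named (no symbol changed when updated through Entrez IDs). Probe sets under the 40th percentile of mean signal were dropped, leaving 13576 (12527 with 1 gene, 7742 genes, each taken by its brightest probe set).

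In R 4.3.3, limma 3.58.1 (lmFit and trended eBayes) modelled log2(signal + 16) over all 10 arrays with 1 mean per group, so the spread is shared (5 residual and 4.73 prior degrees of freedom). The fit was tested on simulated data. P-values were Benjamini-Hochberg adjusted over all 13576. Folds are on the log2(signal + 16) scale and understate dim genes. Named genes were the 15 largest rises and falls that passed without overlap between arrays, the 8 of smallest p against WT and against H1093K, Ehmt2, and per list up to 6 that passed and 2 that did not, by p. The 31 gene lists and 6 marker lists, the comparisons and the rule were chosen with earlier results of these data known. Deviations from group means correlated at 0.234 to 0.527 between same-numbered arrays of every pair of groups, so the numbers were taken to pair arrays. The second array of each group is numbered in its title. The main fit, which gave the p-values and intervals unless the block is named, does not use that pairing. A fit with the number as a block was run beside it. Alternatives also covered the pseudocount, filter, scaling, trend, arrays fitted and each array left out. The number of arrays limits the precision.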

Additional observations from a re-analysis of the deposited data

Results flagged for a closer look

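The arrays labelled deleted form no side of a comparison here, though they entered the filter and the shared spread. Their Ehmt2 signal averaged 1714 over 2 arrays, against 444 in delta, where the gene is deleted too. It stood out because it lies above every array of reconstituted cells, K165A included, where the highest was 725. The labels name no vector for those cells, and the cause was not tested.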

How the results depend on the processing

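The count for K165A against delta (1529) was 805 when only its 4 arrays were fitted, 2678 with the replicate block and 823 to 928 with 1 array left out; under the other alternatives it was 1250 to 1645. K165A against WT stayed at 0 under every alternative run. K165A against H1093K (1007) was 663 with only its 4 arrays, 1854 with the replicate block and 542 to 687 with 1 array left out. WT against delta (1616) was 2813 with the replicate block and 781 to 928 with 1 array left out. H1093K against delta (111) was 60 with no filter, 53 with no trend, 65 without the arrays labelled deleted, 0 with only its 4 arrays, 472 with the replicate block and 7 to 36 with 1 array left out. Of 229 genes chosen by the rule, 163 passed in K165A against delta and 115 of these passed with each of the 4 arrays left out; none of the 163 changed sign under the alternatives run. Among those that did not pass, Irs2 (log2 difference -0.115) ranged from -0.312 to 0.0833 with 1 array left out, above 0 without the second delta or the first K165A array, and Uchl1 (-0.147) from -0.314 to 0.0202, above 0 without the second K165A array. With the replicate block 38 more passed and none was lost. Taking a gene by its probe set of smallest p moved no list count by over 1.5 times, except that 1 endoplasmic reticulum gene rose in place of 0. The list counts under the block were added after seeing the data. The small groups set these limits: with 2 arrays each, a left-out array leaves 1, which is then assumed to vary like the other groups. Signals near background, such as Angpt1 in delta, carry no reliable level.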
